A study of Homo sapiens with 9 samples.

Results

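The transcripts described here belong to the integrated stress response: the transcription factor ATF4, its partners and successors ATF3, DDIT3 (also called CHOP) and CEBPB, the effectors CHAC1, SESN2, DDIT4, TRIB3 and PPP1R15A, and the secreted glycoprotein STC2. They were taken as every probe set that the platform annotation assigns to 1 of these genes alone, which gave 16 probe sets for 10 genes, of 54613 probe sets and 19775 genes in all. Each gene is described by its brightest probe set (the highest mean log2 value over all 9 arrays), and the other probe sets are given where they exist.

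RNA came from HT1080 cells, an established human fibrosarcoma line, grown on top of a thick gel of fibrillar bovine collagen in medium with 10% serum. A polymerization of 4 h and an adhesion of 24 h are recorded for every group. A protease inhibitor mix was applied for 4 h in one group (PI 4 h) and for 24 h in another (PI 24 h), a further group was untreated, and each had 3 arrays. The mix held GM6001, an inhibitor of matrix metalloproteinases, at 100 µM, pepstatin A at 50 µM, E64 at 250 µM, and aprotinin and leupeptin at 2 µM each. The titles of the untreated arrays name a vehicle, and neither the vehicle nor the harvest time of those cells is given in the sources used here. The series' design text calls the mix kinase inhibitors and the replicates biological, while the treatment protocol lists the protease inhibitors above.

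In the integrated stress response, kinases that sense amino acid shortage, unfolded proteins, heme lack or double-stranded RNA phosphorylate the initiation factor eIF2. General translation then slows while the ATF4 message is translated more, so that ATF4 activity is set largely by translation and only in part by the level of its messenger RNA. ATF4 turns on genes of amino acid supply and of feedback, among them CHAC1, SESN2, DDIT4, TRIB3 and STC2. Arrays measure messenger RNA and do not show the phosphorylation or the translation.

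Levels are the deposited linear intensities, whose trimmed mean is 100 for every array, and group levels are means with their SD (n = 3). Changes are differences in log2(intensity + 16), and folds of genes are ratios of (intensity + 16), which are nearer to 1 than ratios of the levels. Changes were tested in 1 limma model over all genes with Benjamini-Hochberg adjustment, and a gene passed where the adjusted p was under 0.05. Intensities of different probe sets are not set against each other. The poly-A spikes, which are added during sample preparation, were 1.85-fold brighter at PI 4 h and 2.49-fold brighter at PI 24 h than on untreated arrays, and 1.35-fold brighter at PI 24 h than at PI 4 h, without overlap (each two-sided exact permutation p = 0.1, the lowest value possible with 3 against 3 arrays). The 5′ over 3′ signal of the control probe sets, a measure of RNA integrity, was for ACTB 0.615 to 0.871 at PI 4 h, 0.654 to 0.727 at PI 24 h and 0.855 to 0.922 on untreated arrays. For GAPDH it ran the other way, at 1.049 to 1.105 at PI 4 h, 1.061 to 1.097 at PI 24 h and 1.048 to 1.049 on untreated arrays. Replicate 2 of PI 4 h had the ACTB value of 0.871 and lay at -13.4 on the first principal component, where the other PI 4 h arrays lay at 8.63 and 15.5 and untreated arrays between -23.3 and -18.2. Of 7 mesenchymal markers 6 had a mean above 64, among them VIM at 9681 to 11286 over the 3 groups, and THY1 did not, at 10.5 to 26.2. None of the 15 measured epithelial, leukocyte and endothelial markers had a mean above 64, and their lists summed to 26.2 to 54.9, 20.2 to 36.9 and 55.2 to 88.4 at PI 4 h, to 13.8 to 50.0, 23.3 to 42.2 and 70.1 to 116.6 at PI 24 h, and to 15.2 to 29.6, 18.2 to 53.6 and 32.2 to 47.8 on untreated arrays. The part of these array measures and marker levels in the results below was not tested. In a bulk measurement, fewer cells that express a gene and less RNA per cell cannot be told apart.

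The bases before the start site are shown for CHAC1, ATF3 and PPP1R15A, whose promoter windows hold a stress-related motif, and for STC2, the gene with the clearest difference, whose window holds none of those searched. All 10 genes matched the RefSeq promoter table (GRCh38.p14), which lists 16 windows for them, each from 250 bases before to 50 after a start. The motifs were the core of the C/EBP-ATF response element (CARE), TGATGNAA, the cyclic AMP response element (CRE), TGACGTCA, and the endoplasmic reticulum stress element (ERSE), each sought on both strands. Capitals mark a match. Only the 250 bases before the start are printed, 5′ to 3′ on the strand of the gene.
CHAC1 (chr15:40953221-40953470, plus strand): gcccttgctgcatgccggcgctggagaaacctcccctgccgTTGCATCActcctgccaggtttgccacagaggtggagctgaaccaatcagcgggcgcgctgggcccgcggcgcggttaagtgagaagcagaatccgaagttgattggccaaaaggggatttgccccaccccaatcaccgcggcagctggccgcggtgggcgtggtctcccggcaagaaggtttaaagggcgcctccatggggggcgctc
ATF3 (chr1:212565157-212565406, plus strand, the first of 2 listed starts): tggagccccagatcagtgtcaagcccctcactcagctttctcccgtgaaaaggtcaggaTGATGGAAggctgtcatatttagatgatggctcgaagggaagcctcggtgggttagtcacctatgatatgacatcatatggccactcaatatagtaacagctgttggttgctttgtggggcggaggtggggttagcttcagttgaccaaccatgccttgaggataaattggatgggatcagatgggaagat
PPP1R15A (chr19:48872171-48872420, plus strand): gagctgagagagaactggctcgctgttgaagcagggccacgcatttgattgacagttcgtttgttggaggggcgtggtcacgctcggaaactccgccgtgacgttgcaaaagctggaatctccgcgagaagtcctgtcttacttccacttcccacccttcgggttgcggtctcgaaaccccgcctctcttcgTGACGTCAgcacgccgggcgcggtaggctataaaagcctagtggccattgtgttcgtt
STC2 (chr5:173328415-173328664, minus strand): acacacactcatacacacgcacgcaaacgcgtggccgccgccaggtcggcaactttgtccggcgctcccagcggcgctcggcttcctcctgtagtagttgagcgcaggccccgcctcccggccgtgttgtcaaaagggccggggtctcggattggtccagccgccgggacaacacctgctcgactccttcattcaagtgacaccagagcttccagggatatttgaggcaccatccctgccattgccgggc
The CARE core occurred in 2 of the 16 windows, those of CHAC1, where TTGCATCA on the printed strand is the match of the opposite strand and begins 209 bases before the start, and of ATF3, where TGATGGAA begins 191 bases before it. It occurred in 3.62% of all 35116 windows. The CRE occurred in 1 of the 16, beginning 58 bases before the PPP1R15A start, and in 1.85% of all windows. The ERSE occurred in 0 of the 16 and in 0.0769% of all windows. These matches describe the letters and are not evidence of binding, and a window without a match says nothing of sites outside it.

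After 4 h of inhibitor, ATF4, ATF3, CHAC1, SESN2 and STC2 had higher intensity on every treated array than on any untreated one, with folds of (intensity + 16) between 1.41 and 2.15, and the other 5 members overlapped. None of the 10 members passed the test over all genes, where 0.248% of all genes were called (0.233% higher and 0.0152% lower), and at an unadjusted limma p under 0.05 there were 5 higher and 0 lower, which held for 6.93% and 5.43% of all genes. Of all genes, 9.37% were higher and 8.14% lower without overlap, where the members had 5 and 0. The median change over the 10 members was 0.37 on the log2 scale, against 0.012 over all genes. The lowest adjusted p among them was 0.0998, for SESN2. Members were chosen with earlier results of these data known, so here and below the shares of all genes are description and not a test of the set. Those shares also cover dim genes: 40.6% of all genes lay below the pseudocount on average, while the dimmest member, CHAC1, averaged 43.1.

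After 24 h, DDIT3, TRIB3 and ATF4 lay above the untreated arrays without overlap and STC2 and CEBPB lay below them, and again none of the 10 passed (0.465% of all genes were called in either direction). At an unadjusted limma p under 0.05 there were 3 members higher and 1 lower, beside 8.17% and 7.62% of all genes. STC2 came nearest, with an adjusted p of 0.0502. Over all genes, 12.8% were higher and 12.2% lower without overlap, against 3 and 2 of the 10 members. The median change over the members was 0.11, against 0.010 over all genes.

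Between the treated groups, STC2 fell by 1.29 on the log2(intensity + 16) scale at PI 24 h relative to PI 4 h and was the 1 member of 10 that passed, where 0.116% of all genes were called lower and 0.0253% higher. SESN2, ATF3 and CHAC1 were also lower at PI 24 h without overlap, and DDIT3 and TRIB3 higher. Without overlap, 7.85% of all genes were lower and 7.35% were higher. At an unadjusted limma p under 0.05 there were 4 members lower and 2 higher, beside 6.12% and 5.2% of all genes. The comparisons share arrays (both treated groups are set against the same untreated arrays), so that their changes are given side by side and not as independent evidence. No untreated group was matched to each time, so hours of inhibitor cannot be told apart from time in culture or time of harvest.

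**Figure D1:**
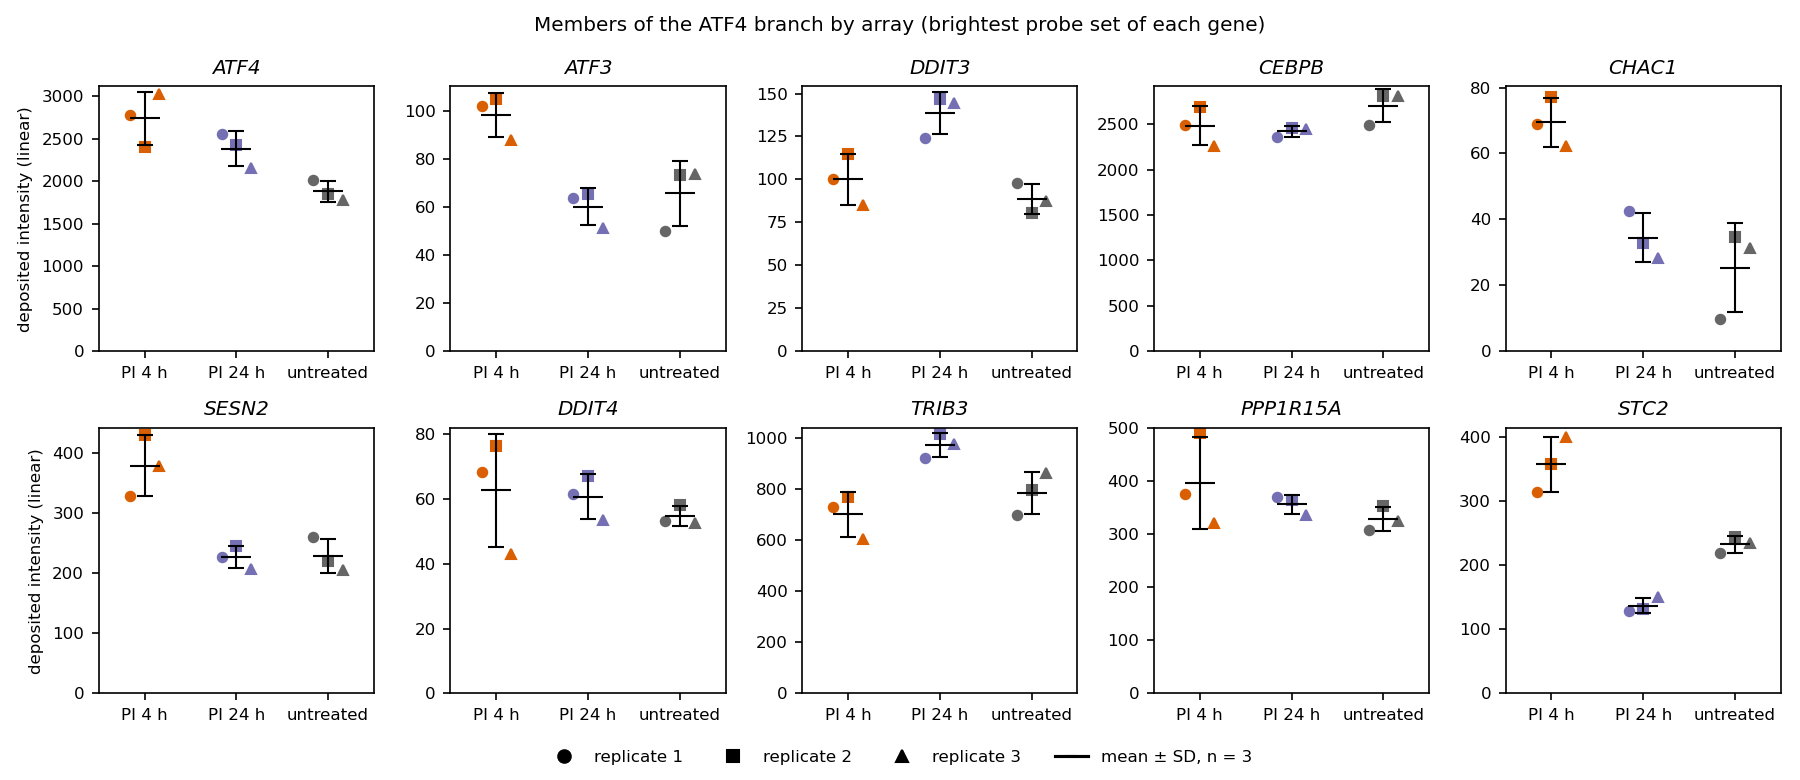
Deposited linear intensity of the 10 members on each of the 9 arrays (symbols mark the replicate number, bars the mean ± SD, n = 3), with PI 4 h, PI 24 h and untreated arrays along the x axis. STC2 is highest at PI 4 h (314 to 401) and lowest at PI 24 h (128 to 150), DDIT3 and TRIB3 are highest at PI 24 h, and DDIT4 and PPP1R15A overlap among the groups.

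Among the transcription factors, ATF4, the bZIP factor that drives the response, measured 2782.4, 2403.2 and 3031.8 at PI 4 h and 2558.8, 2429.7 and 2162.0 at PI 24 h, against 2011.0, 1850.5 and 1779.1 in untreated cells. All 6 treated arrays exceeded all 3 untreated arrays, and the treated groups overlapped. The log2 change was 0.53 ± 0.13 SE at 4 h (adjusted p = 0.15) and 0.34 ± 0.13 SE at 24 h (adjusted p = 0.245). The 95% confidence interval of the difference between PI 24 h and PI 4 h ran from -0.49 to 0.095.

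ATF3, an immediate stress-induced factor that represses or activates its targets, measured 101.9, 105.2 and 87.8 at PI 4 h, against 50.1, 73.5 and 73.7 in untreated cells. At PI 24 h it measured 63.9, 65.4 and 51.5, within the untreated range. The change was 0.49 ± 0.15 SE at 4 h (adjusted p = 0.24) and -0.091 ± 0.15 SE at 24 h (adjusted p = 0.832), and PI 24 h lay below PI 4 h by -0.59 ± 0.15 SE (adjusted p = 0.187). ATF3 has 3 probe sets, and 1 of them had the opposite sign in each comparison. Its second probe set measured 54.2 ± 10.96 at PI 4 h, 27.2 ± 14.9 at PI 24 h and 58.6 ± 6.96 in untreated cells. The excess at 4 h was thus seen on the brightest probe set and not on the second, while on both the mean was lower at PI 24 h than at PI 4 h. Unlike the brightest, the second lay below every untreated array at PI 24 h, at 37.9, 33.4 and 10.2 against 59.0, 65.3 and 51.4. That change was -0.85 ± 0.25 SE (limma adjusted p = 0.179 over all probe sets). The third, at 10.7 ± 10.7 at PI 4 h, 14.5 ± 11.2 at PI 24 h and 6.13 ± 6.04 in untreated cells, had group means below the pseudocount. Single arrays exceeded it, with up to 23.1 at PI 4 h and 23.7 at PI 24 h.

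DDIT3, the factor CHOP that promotes cell death under lasting stress, measured 124.4, 146.7 and 144.5 at PI 24 h, above 98.2, 80.7 and 87.4 in untreated cells. At PI 4 h it measured 100.4, 114.6 and 85 and overlapped the untreated arrays. The change was 0.56 ± 0.14 SE at 24 h (1.48-fold, adjusted p = 0.0953) and 0.14 ± 0.14 SE at 4 h (adjusted p = 0.737). DDIT3 was thus 1 of the 2 members whose highest group was PI 24 h, with PI 24 h above PI 4 h by 0.42 ± 0.14 SE (adjusted p = 0.285).

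CEBPB, a bZIP factor that pairs with ATF4, measured 2484.8, 2691.2 and 2263.6 at PI 4 h and 2352.9, 2455.3 and 2446.9 at PI 24 h, against 2488.8, 2808.0 and 2810.4 in untreated cells. The PI 24 h arrays lay just below the untreated ones and the PI 4 h arrays overlapped them. The changes were -0.12 ± 0.12 SE at 4 h (95% confidence interval -0.38 to 0.13) and -0.16 ± 0.12 SE at 24 h (-0.42 to 0.10), with adjusted p of 0.729 and 0.567.

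Among the effectors, CHAC1 is an enzyme that breaks down glutathione. It measured 68.8, 77.1 and 62.3 at PI 4 h, against 9.9, 34.8 and 31.3 in untreated cells, where replicate 1 lay below the pseudocount. At PI 24 h it measured 42.6, 32.8 and 28.2 and overlapped the untreated arrays. The change was 1.10 ± 0.24 SE at 4 h (2.15-fold, 95% confidence interval 1.48 to 3.12, adjusted p = 0.118) and 0.34 ± 0.24 SE at 24 h (adjusted p = 0.546). Because the gene is dim the size depends on the pseudocount, from 0.59 with 64 to 1.59 with 1. Without untreated replicate 1 the change was 0.80 at 4 h (adjusted p = 0.129) and 0.034 at 24 h (adjusted p = 0.96). PI 24 h lay below PI 4 h by -0.76 ± 0.24 SE (adjusted p = 0.269).

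SESN2, a sestrin that restrains the growth kinase complex mTORC1, measured 328.5, 430.2 and 378.9 at PI 4 h, against 260.1, 219.7 and 205.9 in untreated cells. At PI 24 h it measured 227.6, 245.6 and 207.6, inside the untreated range. The change was 0.69 ± 0.14 SE at 4 h (1.61-fold, adjusted p = 0.0998) and -0.0064 ± 0.14 SE at 24 h (95% confidence interval -0.32 to 0.31). PI 24 h lay below PI 4 h by -0.70 ± 0.14 SE (adjusted p = 0.105). Both probe sets were higher at PI 4 h without overlap, the second measuring 294.5, 240.2 and 200.7 there, against 139.9, 161.4 and 163.0 in untreated cells. The second also measured 194.8, 178.7 and 187.2 at PI 24 h, above every untreated array, unlike the brightest one.

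DDIT4, also known as REDD1 and another brake on mTORC1, measured 68.5, 76.5 and 43.2 at PI 4 h and 61.7, 67.1 and 53.4 at PI 24 h, against 53.1, 58.3 and 52.7 in untreated cells. Replicate 3 of PI 4 h lay below every untreated array and the other 2 above them. The changes were 0.13 ± 0.17 SE at 4 h (95% confidence interval -0.25 to 0.51) and 0.12 ± 0.17 SE at 24 h (-0.27 to 0.50), with adjusted p of 0.82 and 0.805.

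TRIB3, a pseudokinase that binds ATF4 and damps its activity, measured 923.3, 1016.1 and 977.6 at PI 24 h, against 697.4, 795.9 and 862.6 in untreated cells, without overlap. At PI 4 h it measured 731.8, 770.5 and 603.5 and overlapped the untreated arrays from below. The change was 0.31 ± 0.13 SE at 24 h (1.24-fold, adjusted p = 0.307) and -0.16 ± 0.13 SE at 4 h (adjusted p = 0.692). PI 24 h exceeded PI 4 h by 0.47 ± 0.13 SE (adjusted p = 0.229), and DDIT3 and TRIB3 were the only members with a positive difference there. The second probe set of TRIB3 overlapped between the groups, at 100.1 ± 19.7 at PI 4 h, 114.5 ± 13.2 at PI 24 h and 115 ± 18.9 in untreated cells.

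PPP1R15A, the phosphatase subunit GADD34 that removes the eIF2 phosphate and ends the response, measured 376.5, 491.2 and 321.9 at PI 4 h and 370.2, 363.9 and 335.5 at PI 24 h, against 308.2, 353.3 and 324.4 in untreated cells. The groups overlapped, and replicate 2 of PI 4 h was the highest array. The changes were 0.24 ± 0.15 SE at 4 h (95% confidence interval -0.11 to 0.59) and 0.11 ± 0.15 SE at 24 h (-0.23 to 0.46), with adjusted p of 0.589 and 0.787. Its second probe set gave 312.7, 349.8 and 185.8 at PI 4 h, against 193.4, 232.3 and 196.7 in untreated cells, with replicate 3 of PI 4 h below every untreated array.

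**Figure D2:**
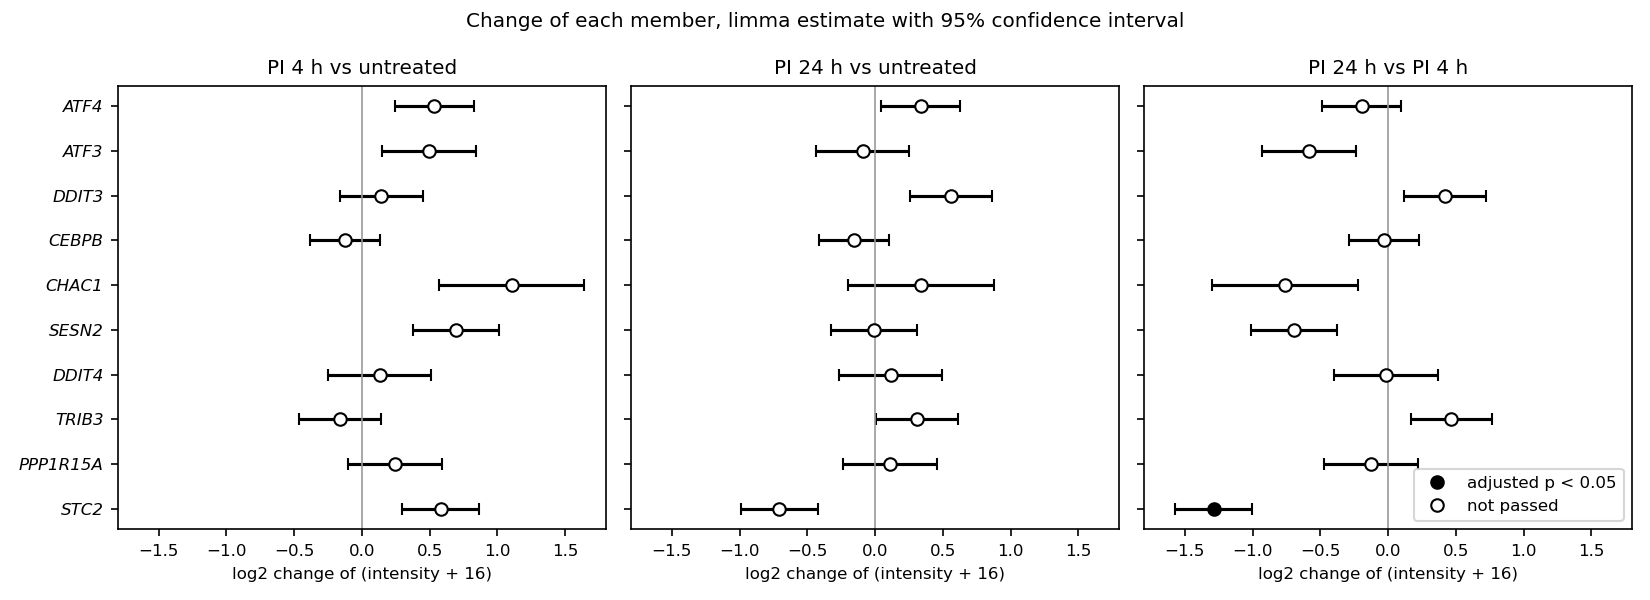
Estimated log2 change of (intensity + 16) for each member, with its 95% confidence interval from the limma model, for PI 4 h against untreated, PI 24 h against untreated, and PI 24 h against PI 4 h. A filled point passed the adjusted threshold, which only STC2 did, at -1.29 between PI 24 h and PI 4 h.

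STC2, stanniocalcin 2, is a secreted glycoprotein induced through ATF4 that binds and inhibits the protease PAPPA, which frees insulin-like growth factors. It measured 314.1, 358.6 and 400.5 at PI 4 h and 128.1, 131.9 and 150.2 at PI 24 h, against 218.7, 244.9 and 234.8 in untreated cells. The 3 groups did not overlap on this probe set: every PI 4 h array lay above, and every PI 24 h array below, the untreated ones. PI 24 h was below PI 4 h by -1.29 ± 0.13 SE on the log2 scale (0.41-fold, 95% confidence interval 0.336 to 0.499, adjusted p = 0.00661), ranking 6 by p among the 19775 genes. Against untreated cells the change was 0.58 ± 0.13 SE at 4 h (95% confidence interval of the fold 1.23 to 1.82, adjusted p = 0.118) and -0.71 ± 0.13 SE at 24 h (0.61-fold, adjusted p = 0.0502), neither of which passed. STC2 was the only member that lay on opposite sides of untreated cells at the 2 times with no overlap at either.

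The second STC2 probe set did not show this pattern. It measured 123.4, 135.1 and 175.6 at PI 4 h and 119.0, 161.4 and 89.9 at PI 24 h, against 192.6, 155.6 and 202.1 in untreated cells, and the groups overlapped. Its change was -0.32 ± 0.21 SE at 4 h, of opposite sign to the brightest probe set, and -0.54 ± 0.21 SE at 24 h, of the same sign, and PI 24 h against PI 4 h gave -0.22 ± 0.21 SE (adjusted p = 0.637, 0.29 and 0.792 over all probe sets). In that fit over all 54613 probe sets, the brightest STC2 probe set was the 1 of the members' 16 that passed for PI 24 h against PI 4 h (adjusted p = 0.0182), where 0.0256% of probe sets were called, and 0 of 16 passed against untreated cells, where 0.0128% were called at 4 h and 0.0531% at 24 h. At an unadjusted p under 0.05 the gene-level limma model gave the counts by direction stated above for each comparison, 5 higher and 0 lower at 4 h (6.93% and 5.43% of all genes) and 3 higher and 1 lower at 24 h (8.17% and 7.62%). With the mean over its probe sets the STC2 difference was -0.76 and did not pass (adjusted p = 0.0692), nor did it pass with the untreated arrays kept out of the model (adjusted p = 0.0765). It passed without each of the 9 arrays in turn (adjusted p 0.0209 to 0.0499), including without replicate 2 of PI 4 h, where it was -1.28 (adjusted p = 0.0426). What the 2 probe sets detect in the transcript was not analysed here.

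**Figure D3:**
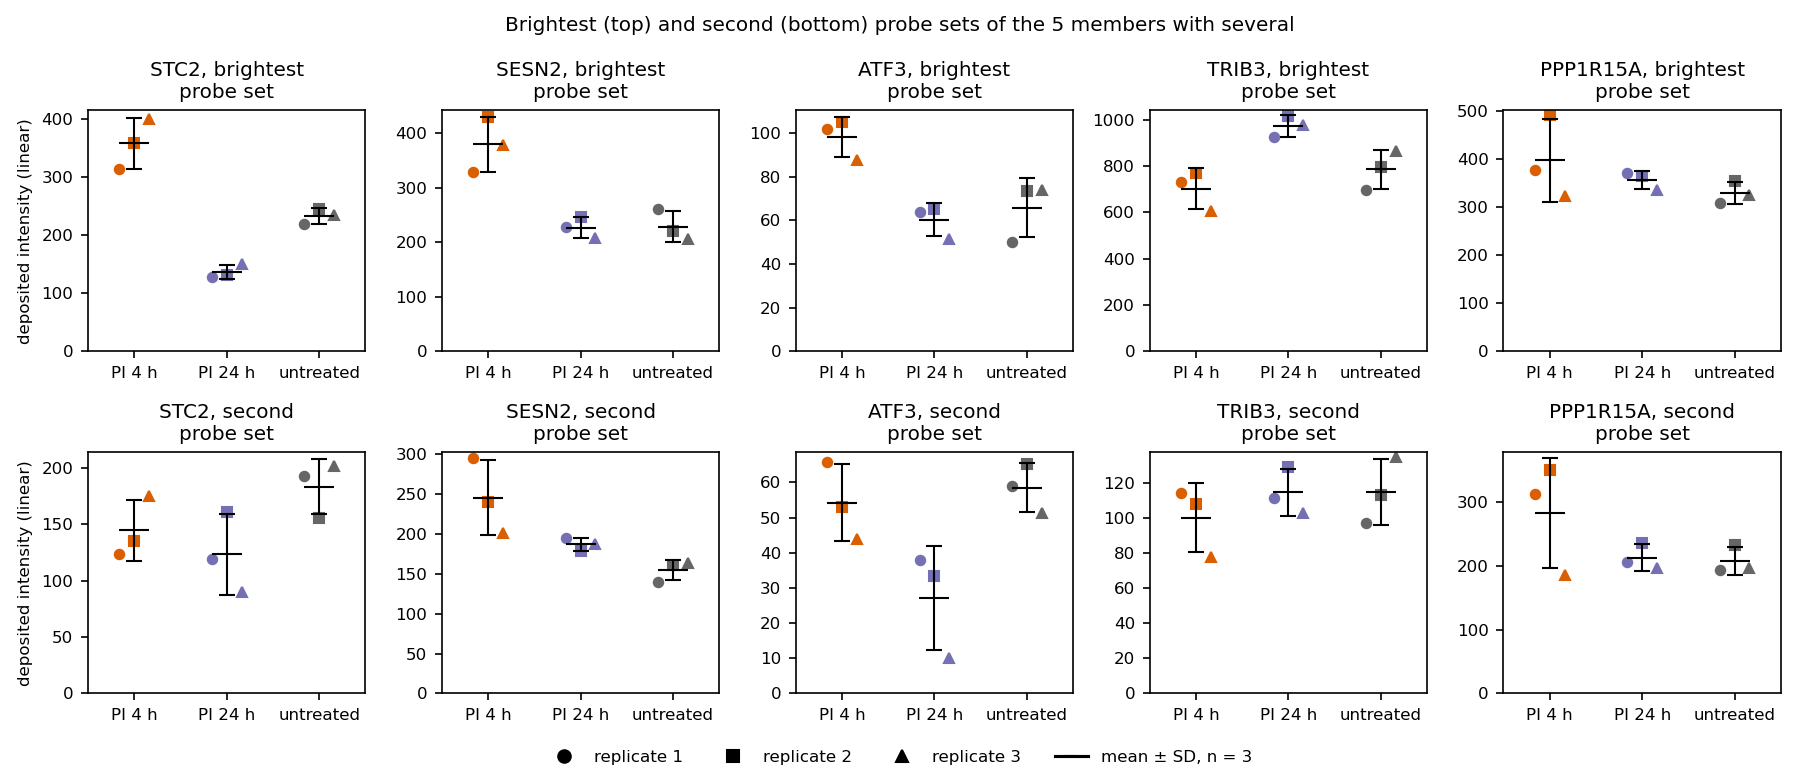
Deposited linear intensity of the brightest (top) and second (bottom) probe sets of the 5 members that have more than 1, by array and group (bars, mean ± SD, n = 3). The brightest STC2 probe set separates the 3 groups while the second overlaps (144.7 ± 27.4 at PI 4 h, 123.4 ± 36.0 at PI 24 h and 183.4 ± 24.6 untreated), and both SESN2 probe sets are higher at PI 4 h than untreated.

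The genes whose profile over the 9 arrays was most like that of STC2, among the 8268 other genes with a mean of at least 64, were PTX3 (Pearson r = 0.98), MCL1 (0.97), CSNK1G1 (0.96), PCTP (0.96) and UBASH3B (0.95). PTX3, a secreted long pentraxin, averaged 1011 at PI 4 h, 599 at PI 24 h and 790 in untreated cells, and MCL1, a survival protein of the BCL2 family, 2937, 1689 and 2151 in the same order. For the others the nearest gene was NPAT for ATF4 (0.95), KLHL21 for ATF3 (0.96), PIGU for DDIT3 (0.94), MLLT1 for CEBPB (0.96) and SLC43A1 for CHAC1 (0.95). It was TTC32 for SESN2 (0.96), TCIRG1 for DDIT4 (0.95), PGD for TRIB3 (0.96) and JUND for PPP1R15A (0.95). No 2 members had the same nearest gene. Each is the highest r in a search over all these genes, so differing names do not show differing profiles. These correlations describe 9 arrays in 3 groups, and the arrays of a group share their treatment.

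Of 28 other measured ATF4-responsive genes, 1 passed at 24 h and none at 4 h or between the times. It was ASNS, asparagine synthetase, which rose to 1065 ± 41 at PI 24 h, against 548 ± 21 in untreated cells (0.94 ± 0.11 SE, adjusted p = 0.022). Its second probe set averaged 0.50 at PI 24 h and 2.63 untreated, below the pseudocount, with the opposite sign. The ASNS call held under 10 of 19 alternatives; averaging its probe sets ended it (0.38, adjusted p = 0.11), as did a pseudocount of 1 (0.96, adjusted p = 0.0739), the replicate block (adjusted p = 0.0759) and leaving out any 1 of the 6 PI 24 h and untreated arrays (adjusted p 0.0869 to 0.154). These alternatives were run for ASNS after its value was seen. The list's median change was 0.11 at 4 h and 0.078 at 24 h. Of the 28, 16 and 18 were above 0, beside 52.2% and 51.6% of all genes. At an unadjusted limma p under 0.05 there were 7 higher and 0 lower at 4 h (6.93% and 5.43% of all genes). There were 9 higher and 1 lower at 24 h (8.17% and 7.62%), and 4 and 2 between the times (5.2% and 6.12%). At 4 h the smallest p were those of KLHL24, at 169 ± 30 against 99.4 ± 18.7 untreated (adjusted p = 0.141, 1 of 5 probe sets of opposite sign), and SLC38A2, an amino acid transporter, at 2498 ± 309 against 1847 ± 46 (adjusted p = 0.21). The pair with the smallest p between the times was ASNS, at 1065 ± 41 at PI 24 h against 702 ± 56 at PI 4 h (adjusted p = 0.0851), and PSAT1, an enzyme of serine synthesis, at 2014 ± 52 against 1534 ± 174 (adjusted p = 0.245).

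None of the 22 genes of the eIF2 kinases and the eIF2 machinery passed in any comparison, and their median changes were -0.025 at 4 h and 0.066 at 24 h. With an unadjusted limma p under 0.05 there were 1 higher and 2 lower at 4 h (6.93% and 5.43% of all genes). There were 1 higher and 3 lower at 24 h (8.17% and 7.62%), and 1 and 2 between the times (5.2% and 6.12%). PPP1R15B, the constitutive paralog of PPP1R15A that also directs eIF2 dephosphorylation, measured 968 ± 60 at PI 4 h, against 638 ± 49 untreated, without overlap (0.59 ± 0.11 SE, adjusted p = 0.0809). It measured 580 ± 24 at PI 24 h, below PI 4 h by -0.72 ± 0.11 SE (adjusted p = 0.0545). OMA1, a mitochondrial protease that relays mitochondrial stress to the pathway, measured 104 ± 18 at PI 4 h, against 138 ± 18 untreated (adjusted p = 0.349). The guanine exchange subunits EIF2B3 and EIF2B1 measured 676 ± 134 and 904 ± 46 at PI 24 h, against 490 ± 32 and 1114 ± 22 untreated (adjusted p = 0.196 and 0.207). EIF2A, an initiation factor, measured 2653 ± 293 at PI 24 h, against 1980 ± 286 at PI 4 h (adjusted p = 0.285).

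None of 24 measured genes of the IRE1 and ATF6 branches, the other arms of the unfolded protein response, passed in any comparison, and the list median was 0.0066 at 4 h and 0.044 at 24 h. At an unadjusted limma p under 0.05 there were 3 higher and 3 lower at 4 h (6.93% and 5.43% of all genes). There were 7 higher and 2 lower at 24 h (8.17% and 7.62%), and 2 and 0 between the times (5.2% and 6.12%). HSPA13, an HSP70-family chaperone, measured 631 ± 52 at PI 24 h, against 340 ± 41 untreated (0.86 ± 0.17 SE, adjusted p = 0.061), and 519 ± 109 at PI 4 h (adjusted p = 0.224). PDIA4, a protein disulfide isomerase, measured 280 ± 91 at PI 4 h, against 482 ± 90 untreated (adjusted p = 0.204, 1 of 2 probe sets of opposite sign). SEL1L, of the degradation pathway of the endoplasmic reticulum, measured 243 ± 6 at PI 24 h, against 174 ± 14 untreated (adjusted p = 0.102, 2 of 4 probe sets of opposite sign). SEC24D, a vesicle coat subunit, measured 197 ± 23 at PI 24 h, against 151 ± 19 at PI 4 h (adjusted p = 0.366, 2 of 3 probe sets of opposite sign). HSPA5, the main chaperone of that compartment, measured 5145 ± 182 at PI 24 h, against 4272 ± 374 at PI 4 h (adjusted p = 0.409, 1 of 2 probe sets of opposite sign).

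Of 18 genes of mTORC1 and its control (its subunits and the TSC, GATOR and CASTOR proteins), none passed in any comparison, with list medians of -0.086 at 4 h and 0.0044 at 24 h. With an unadjusted limma p under 0.05 there were 0 higher and 1 lower at 4 h (6.93% and 5.43% of all genes). There were 0 higher and 3 lower at 24 h (8.17% and 7.62%), and 0 and 1 between the times (5.2% and 6.12%). AKT1S1, an mTORC1 inhibitor also called PRAS40, measured 322 ± 61 at PI 4 h and 316 ± 37 at PI 24 h, against 453 ± 30 untreated (adjusted p = 0.24 and 0.149). CASTOR1, an arginine sensor, measured 62.7 ± 21.95 at PI 4 h, against 85.2 ± 5.2 untreated (adjusted p = 0.45). NPRL3, a subunit of the GATOR1 complex, measured 164 ± 15 at PI 24 h, against 217 ± 11 untreated (adjusted p = 0.206, 1 of 4 probe sets of opposite sign) and 203 ± 27 at PI 4 h (adjusted p = 0.464). DEPDC5, another GATOR1 subunit, was near background at 10.8 ± 10.5 at PI 24 h, against 25.2 ± 10.0 at PI 4 h (adjusted p = 0.382).

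None of the 14 paralogs of the members passed either, PPP1R15B above among them, with medians of 0.18 at 4 h and -0.018 at 24 h. With an unadjusted limma p under 0.05 there were 3 higher and 0 lower at 4 h (6.93% and 5.43% of all genes). There were 1 higher and 1 lower at 24 h (8.17% and 7.62%), and 0 and 3 between the times (5.2% and 6.12%). ATF5, an ATF4-related factor, measured 156 ± 12 at PI 4 h and 164 ± 20 at PI 24 h, against 118 ± 11 untreated (adjusted p = 0.297 and 0.15, 1 of 4 probe sets of opposite sign in each). TRIB2 measured 20.6 ± 13.9 at PI 24 h, against 50.7 ± 6.5 untreated (-0.92 ± 0.22 SE, adjusted p = 0.097), where its paralog TRIB3 was 0.31. TRIB1 measured 291 ± 10 at PI 24 h, against 431 ± 38 at PI 4 h (-0.54 ± 0.11 SE, adjusted p = 0.116, 1 of 3 probe sets of opposite sign), where TRIB3 was 0.47. The differences between these paralogs were not tested.

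In the axis on which STC2 acts, none of 8 measured genes passed, with medians of 0.21 at 4 h and 0.13 at 24 h. With an unadjusted limma p under 0.05 there were 1 higher and 0 lower at 4 h (6.93% and 5.43% of all genes). There were 1 higher and 1 lower at 24 h (8.17% and 7.62%), and 1 and 2 between the times (5.2% and 6.12%). STC1, the other stanniocalcin, measured 4392 ± 752 at PI 4 h and 3792 ± 259 at PI 24 h, against 3602 ± 461 untreated (adjusted p = 0.516 and 0.858). It was named for its kinship with STC2, after its values were seen. PAPPA, the protease that STC2 inhibits, measured 87.8 ± 13.8 at PI 24 h, against 150 ± 14 at PI 4 h and 128 ± 12 untreated (-0.68 ± 0.14 SE and -0.48 ± 0.14 SE, adjusted p = 0.103 and 0.132), and 2 and 4 of its 11 probe sets ran the other way. IGF1R, the receptor of insulin-like growth factors, measured 114 ± 17 at PI 4 h and 139 ± 6 at PI 24 h, against 94.7 ± 3.4 untreated (adjusted p = 0.505 and 0.102, 1 of 5 probe sets of opposite sign at 4 h). IGFBP5, one of their binding proteins and a PAPPA substrate, was dim, at 29.5 ± 2.2 at PI 4 h and 12.9 ± 9.2 at PI 24 h, against 14.5 ± 6.03 untreated (adjusted p = 0.365 at 4 h, 2 of 6 probe sets of opposite sign).

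**Figure D4:**
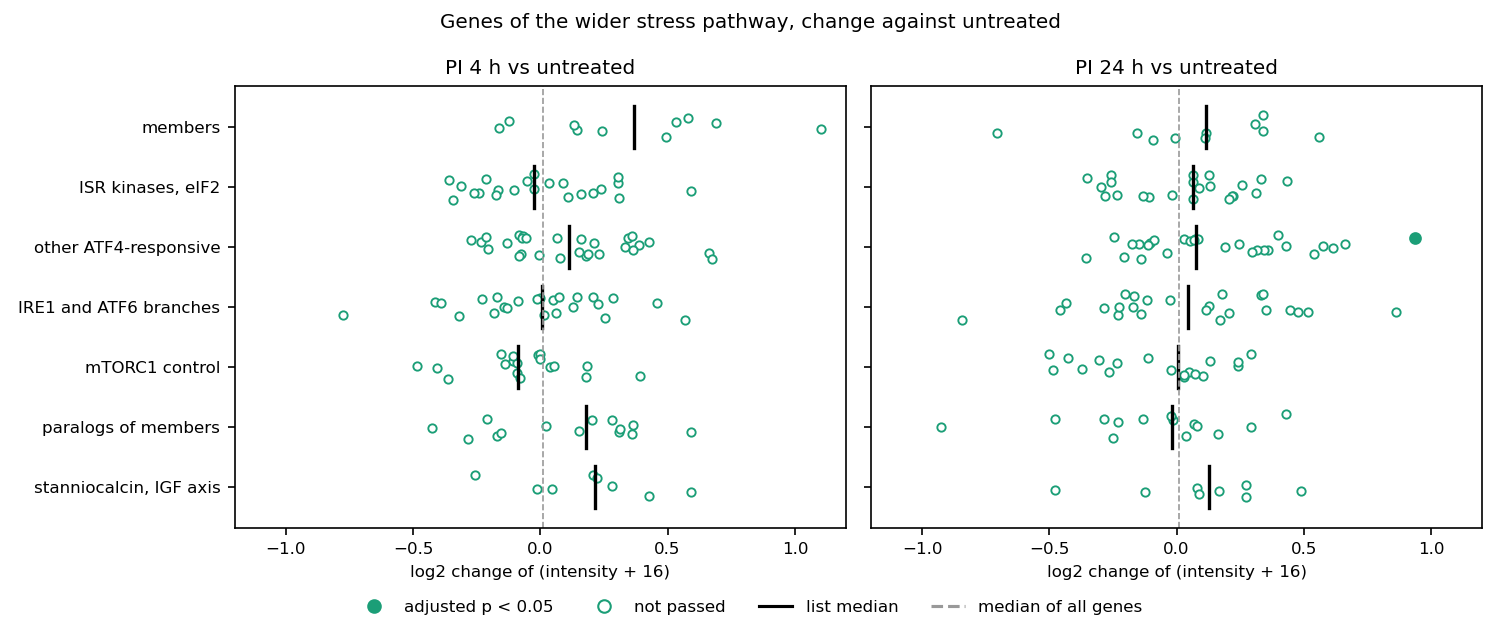
Log2 change of (intensity + 16) against untreated cells at PI 4 h (left) and PI 24 h (right), 1 point per gene, for the members and 6 lists of the wider pathway, with the list median (black) and the median of all genes (dashed). ASNS, at 0.94 at 24 h, is the 1 filled point; the member median is 0.37 at 4 h and 0.11 at 24 h.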

How the data were processed

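Probe set intensities of 9 one-colour arrays, 3 per group, were used as deposited. The deposited intensity values are linear, and the trimmed mean (2% off each end) was 100 on every array, as found from the values. R 2.9.2 and RMA are listed in the submitters' processing notes with no role, and further steps are not stated there. A common mean hides a change in total messenger RNA, and no detection calls were used. Groups and replicate numbers came from the titles. The replicates are called biological, with no source naming separate cultures. The p-values set differences between groups against the spread between these samples, and whether they extend to independent cultures is not known.

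From the deposited intensity, log2(intensity + 16) was computed. Of 54613 probe sets that are not controls, 41091 named 1 gene, 1801 several and 11721 none, and symbols were updated through RefSeq for 41037 and kept for 54. The probe set with the highest mean log2 value represented each of 19775 genes, without a filter; 40.6% of these lay below the pseudocount on average. A limma 3.58.1 model (R 4.3.3) with 1 mean per group was fitted to all genes and arrays, two-sided, with Benjamini-Hochberg adjustment at 0.05, and again with every probe set as a feature. On simulated data of 19775 genes for PI 24 h against PI 4 h, recovery was 71.6% of 67 genes with a log2 change of 1. It was 10.4% of 67 genes with a change of 0.5, and 4 unchanged genes were called falsely. Against untreated, it was 64.2% for PI 4 h and 65.7% for PI 24 h at a change of 1, and 2.99% and 5.97% at a change of 0.5. Changed genes were drawn from the brighter 60%. Noise was drawn independently for each gene and array, so differences between whole arrays, as in the array measures above, were not simulated. Recovery also depends on how many genes were changed.

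Members and lists were chosen with earlier results of these data known. All members are named whatever their test. From each list, every gene past the threshold, up to 4 in each direction, or else the 2 with the smallest p, is named for each comparison. Alternatives were 2 pseudocounts, 2 scalings, a filter, 2 treatments of probe sets, the compared groups alone, a replicate block, a variance trend and leaving out each array. The number of arrays limits the precision.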

Additional observations from a re-analysis of the deposited data

Results flagged for a closer look

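STC2 differed between the treatment times: its brightest probe set was lower at PI 24 h than at PI 4 h by -1.29 on the log2 scale (limma adjusted p = 0.00661), with 0 of 3 PI 24 h arrays reaching any PI 4 h array, while it lay above untreated cells at 4 h and below them at 24 h. The difference between the times was tested directly, and the changes against untreated cells did not pass on their own. Without untreated cells matched to each time, hours of inhibitor cannot be told apart from time in culture or time of harvest. The second probe set gave -0.22. The call ended when probe sets were averaged (-0.76, adjusted p = 0.0692) and when untreated arrays were left out of the fit (adjusted p = 0.0765).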

How the results depend on the processing

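Over 19 alternatives, 535 of 570 member changes kept their direction and their side of the threshold, 22 newly passed, 2 no longer passed and 11 turned sign. Several alternatives could not turn a sign, because they leave the estimated change as it was. These are the filter, every probe set as a feature, the compared groups alone, the replicate block and the variance trend. Leaving out an array of the group not compared does the same. With a pseudocount of 64, the filter at the 40th percentile, the mean over probe sets and the variance trend, 4, 3, 1 and 3 members passed at PI 4 h against untreated, where 0 had, and so did 1.38%, 1.49%, 0.131% and 1.26% of all genes tested. At PI 24 h against untreated 2 passed with the pseudocount of 64 and 2 with the filter, and 1 with the compared groups alone and 1 with the trend, where 0 had (4.18%, 4.86%, 1.01% and 4.18% of all genes); the count was 0 to 1 when single arrays were left out, STC2 passing without replicate 2 or replicate 3 of PI 4 h (adjusted p = 0.046 and 0.0497, with 1.29% and 0.546% of all genes). Between PI 24 h and PI 4 h, where 1 had passed, 2 passed with the pseudocount of 64, the filter and the trend (1.27%, 1.05% and 1.09% of all genes), and 0 with the mean over probe sets (STC2 -0.76, adjusted p = 0.0692), and also when only those 2 groups were fitted (STC2 -1.29, adjusted p = 0.0765); without single arrays STC2 ran from -1.37 to -1.21. The filter leaves fewer genes both for the adjustment and for the shared variance estimate. The cause of these differences was not tested. The sign of SESN2 at PI 24 h against untreated turned under quantile normalization (0.018) and the mean over probe sets (0.12), and ran from -0.073 to 0.084 when single arrays were left out. That of DDIT4 between PI 24 h and PI 4 h turned under quantile normalization (0.030) and median centring (0.0029), and ran from -0.21 to 0.11. CEBPB ran from -0.096 to 0.028 and PPP1R15A from -0.26 to 0.032 there. Calls over all genes were 49 at PI 4 h, 92 at PI 24 h and 28 between them, and ranged from 2 to 273, 0 to 826 and 1 to 251. Same-numbered arrays had correlations of their deviations from -0.044 to 0.057, and differently numbered arrays from -0.046 to 0.079. Between PI 4 h and PI 24 h the same-numbered pairs ran from 0.036 to 0.057 and the others from -0.038 to -0.00027. Between untreated and PI 24 h they ran from 0.014 to 0.042 and from -0.046 to 0.014. Between untreated and PI 4 h they ran from -0.044 to 0.047 and from -0.044 to 0.079. These values do not settle whether the numbers pair the arrays. With the replicate block 0, 0 and 1 members passed (STC2 adjusted p = 0.046), with 3, 1 and 3 calls over all genes. ASNS no longer passed with the block (adjusted p = 0.0759). Dim members, CHAC1 above all, are limited by signal near the pseudocount.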
